A study of Arabidopsis thaliana with 12 samples.

Results

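The genes of the mitogen-activated protein (MAP) kinase cascades were followed in Arabidopsis thaliana seedlings that lacked, or had, the arginyl-transferases ATE1 and ATE2 and were treated with flg22 or mock-treated. The members were all rows of the count table whose gene symbol was MPK, MKK, MEKK or MAPKKK followed by a number, which gave 41 of 23739 genes: 18 MAP kinases (MAPKs, symbols MPK), 8 MAPK kinases (MAPKKs, symbols MKK) and 15 MAPKK kinases (MAPKKKs, symbols MEKK and MAPKKK). The choice used names and no measured value. Cascade kinases that the table lists under other symbols, such as MEK1 (also MKK1), NP1 to NP3 (also ANP1 to ANP3), YDA, EDR1, CTR1, ATMPK8 and MAP3KA, were outside it and are given separately.

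Polyadenylated RNA was sequenced from whole seedlings aged 10 days, in 4 groups of 3 libraries: flg22-treated a1a2, mock-treated a1a2, flg22-treated Col-0 and mock-treated Col-0. The a1a2 plants carried the ate1-2 and ate2-1 mutations and so lacked Arg-transferase activity, and Col-0 was the wild-type accession. Treated seedlings received 1 µM flg22, a peptide of bacterial flagellin, for 1 h in liquid medium, and mock-treated seedlings received water. Each library was made from pooled seedlings grown in continuous light on medium with sucrose and moved to liquid medium the day before treatment, so roots and shoots were measured together. The comparisons ask which genes respond to flg22, and whether the loss of the Arg-transferases alters their level or their response.

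In a MAP kinase cascade an activated MAPKKK phosphorylates a MAPKK, which phosphorylates a MAPK on a threonine and a tyrosine of its activation loop, and the MAPK then phosphorylates transcription factors and other proteins. When flg22 binds the receptor kinase FLS2 with its co-receptor BAK1, cascades are switched on within minutes by phosphorylation of kinases already present. The textbook branches run through MKK4 and MKK5 to MPK3 and MPK6, and through MEKK1, MKK1 and MKK2 to MPK4. RNA levels, which are what was measured here, say nothing of that phosphorylation.

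The residue between the threonine and the tyrosine divides plant MAPKs into a TEY and a TDY class. The coding stretch around this motif was read for all 18 MAPKs from the RefSeq genome TAIR10.1, and 11 were TEY and 7 were TDY. It is shown for the MAPKs that responded to flg22, for MPK6, and for MPK1 and MPK18 for comparison, with the 9 bases of the motif in capitals and spliced where an intron falls inside it.
MPK3 (chr3:16757766-16757792, plus strand): gattttatgACTGAGTATgttgttacg
MPK6 (chr2:18139889-18139915, plus strand): gatttcatgACTGAATATgttgtcacg
MPK4 (chr4:568198-568224, plus strand): gactttatgACTGAATATgttgttaca
MPK11 (chr1:203417-203443, plus strand): gacttcatgACAGAATATgttgttaca
MPK5 (chr4:6893134-6893160, plus strand): gagtatatgACAGAGTATgttgtaaca
MPK2 (chr1:21885174-21885200, plus strand): cagttcatgACTGAATATgttgtgact
MPK1 (chr1:3350225-3350251, plus strand): cagttcatgACTGAATATgttgtgact
MPK17 (chr2:201361-201372 and chr2:201229-201243, minus strand): gtgttttggACTGACTACgttgctaca
MPK18 (chr1:19973294-19973305 and chr1:19973189-19973203, minus strand): gtcttttggACGGACTATgttgccaca
The classes differed in gene structure as well as in the middle codon. In all 7 TDY genes an intron followed the first codon of the motif, after 3 of its bases, while none of the 11 TEY genes had an intron in the 27-base stretch. MPK1 and MPK2 had the same 27 bases.

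Library totals were even, at 20285662 to 22433536 counts. The targeted genes followed the labels: in counts scaled to library size and composition (CPM), ATE1 averaged 3.15 ± 0.94 in flg22-treated a1a2 against 24.7 ± 3.8 CPM in flg22-treated Col-0, and 2.60 ± 0.37 CPM in mock-treated a1a2 against 22.4 ± 0.44 CPM in mock-treated Col-0 (SD, n = 3 each), and ATE2 was also lower in a1a2. Shoot genes (RBCS1A, LHCB3 and CAB1) and the root gene PYK10 were abundant in every library, root markers COBL9, SHR and PLT1 were detected, and the floral genes AP3 and AG did not exceed 0.36 and 0.69 CPM. None of these shoot or root markers was called in any of the 4 comparisons. The seed storage gene CRA1 ran between 0 and 9.85 CPM, with means of 2.70 and 4.90 CPM in flg22- and mock-treated a1a2 against 0.118 and 0.128 CPM in flg22- and mock-treated Col-0. It was not called, and its part in any result was not tested.

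Of the 41 members, 39 had enough counts to be tested. MKK10 had at most 2 counts in a library and MAPKKK21 had 1 to 12, so neither passed. A gene was called a differentially expressed gene (DEG) at an adjusted p-value under 0.05 and a change of over 1.5-fold, by edgeR's quasi-likelihood test with Benjamini-Hochberg adjustment over all 20439 genes tested. All levels are in CPM after TMM scaling for library composition, and changes are log2 fold changes with their standard error (SE) unless a fold is named.

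After flg22, RNA of 15 of 39 members was higher in a1a2 and of 16 of 39 in Col-0, and no member was called lower in either genotype in this fit. MPK18 lay at the fold threshold and was called lower under some alternatives, given with its values. In a1a2 this was 38.5% of the members, where 21.2% of all tested genes were called, 13.9% as higher and 7.29% as lower. In Col-0 it was 41% of the members, where 21% of all genes were called, 13.9% as higher and 7.06% as lower. The same 15 genes were called in both genotypes and MAPKKK13 in Col-0 alone. The MAPKK tier had the largest share of called members in each genotype, with 5 of 7, against 6 of 18 MAPKs in each and 4 and 5 of 14 MAPKKKs in a1a2 and Col-0. The median log2 change was 0.30 over the members and 0.00 over all genes in a1a2, and 0.40 and -0.01 in Col-0. As seedlings were sampled whole, a change in RNA per cell and a change in the share of cells that make it cannot be told apart.

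The split between higher and lower depends on the scaling. Without TMM factors, which ran from 0.855 to 0.96 in flg22-treated and from 1.05 to 1.16 in mock-treated libraries, the median of all genes moved by -0.25 in each genotype, and 12 members were called higher and 2 lower in each. Over all genes the balance turned: 27.1% were called in a1a2, 10.8% as higher and 16.3% as lower, and 27.3% in Col-0, 11% as higher and 16.4% as lower. MPK2, MPK4 and MKK2 then lost their calls in both genotypes, as did MAPKKK13 in Col-0, and the members called lower were MPK18 and MAPKKK20 in a1a2 and MPK18 and MPK14 in Col-0. None of the 16 genes changed sign.

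**Figure D1:**
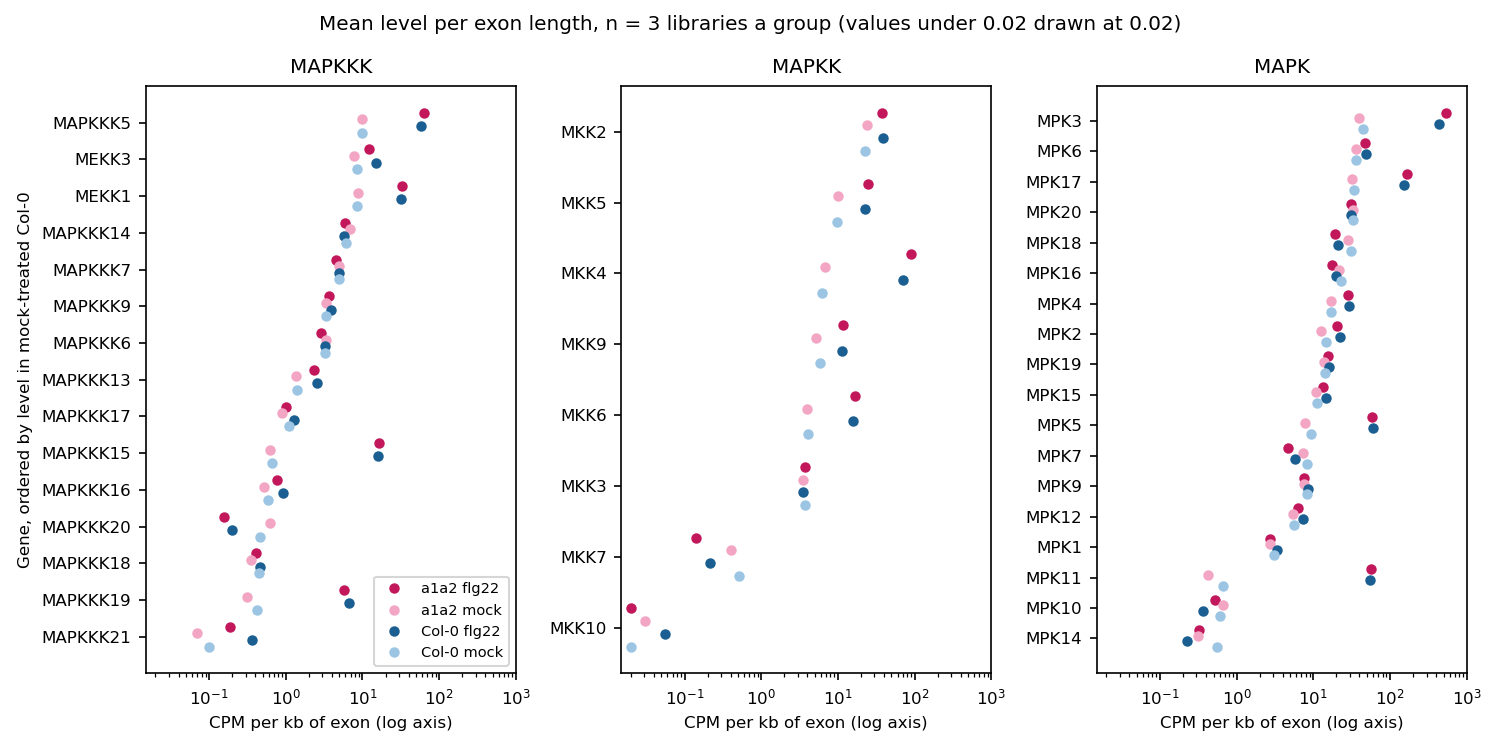
Mean level of each of the 41 members in CPM per kb of exon (log axis), by tier and ordered by level in mock-treated Col-0, with a point for each of the 4 groups (n = 3 libraries each). MPK3, MKK4 and MAPKKK5 stand at the top of their tiers after flg22, and MPK11, MAPKKK15 and MAPKKK19 lie under 1 CPM per kb in mock-treated seedlings and above 5 after flg22.

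The flg22 response reordered each tier. Summed over the members, the level was 2722 to 2963 CPM in flg22-treated against 846 to 928 CPM in mock-treated a1a2, and 2371 to 2748 CPM in flg22-treated against 877 to 948 CPM in mock-treated Col-0. To compare genes with each other, levels were divided by exon length. MPK3 had the highest level of the MAPKs in every group, and made up 47.9 to 56% of the summed MAPK level per kb in flg22-treated against 13 to 14.8% in mock-treated a1a2, and 39.4 to 53.7% in flg22-treated against 14.1 to 16.2% in mock-treated Col-0. MPK6 was second in mock-treated seedlings, at 36.4 ± 3.9 CPM per kb in a1a2 and 36 ± 1.8 in Col-0, where its range overlapped that of MPK3 in a1a2 but not in Col-0, that of MPK17 in both, and that of MPK20 in a1a2 but not in Col-0 (SD, n = 3 each). After flg22 it was the fifth, behind MPK3, MPK17, MPK5 and MPK11, though its range overlapped those of MPK5 and MPK11.

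Among MAPKKs the leading gene changed. MKK2 was the highest in mock-treated seedlings, and made up 19.9 to 20.9% of the MAPKK level per kb in flg22-treated against 42.5 to 45.3% in mock-treated a1a2, and 20.3 to 27.3% in flg22-treated against 41.7 to 44.7% in mock-treated Col-0. MKK4 was the highest after flg22, with 47.5 to 50.8% in flg22-treated against 11.6 to 13.8% in mock-treated a1a2, and 41.4 to 46.9% in flg22-treated against 11.7 to 12.1% in mock-treated Col-0. MAPKKK5 led its tier in mean level in every group, at 63.2 ± 7.3 CPM per kb in flg22-treated against 9.85 ± 0.74 in mock-treated a1a2, and 57.3 ± 4.9 in flg22-treated against 9.93 ± 0.68 in mock-treated Col-0 (SD, n = 3 each). In mock-treated seedlings of each genotype its range overlapped that of MEKK3.

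**Figure D2:**
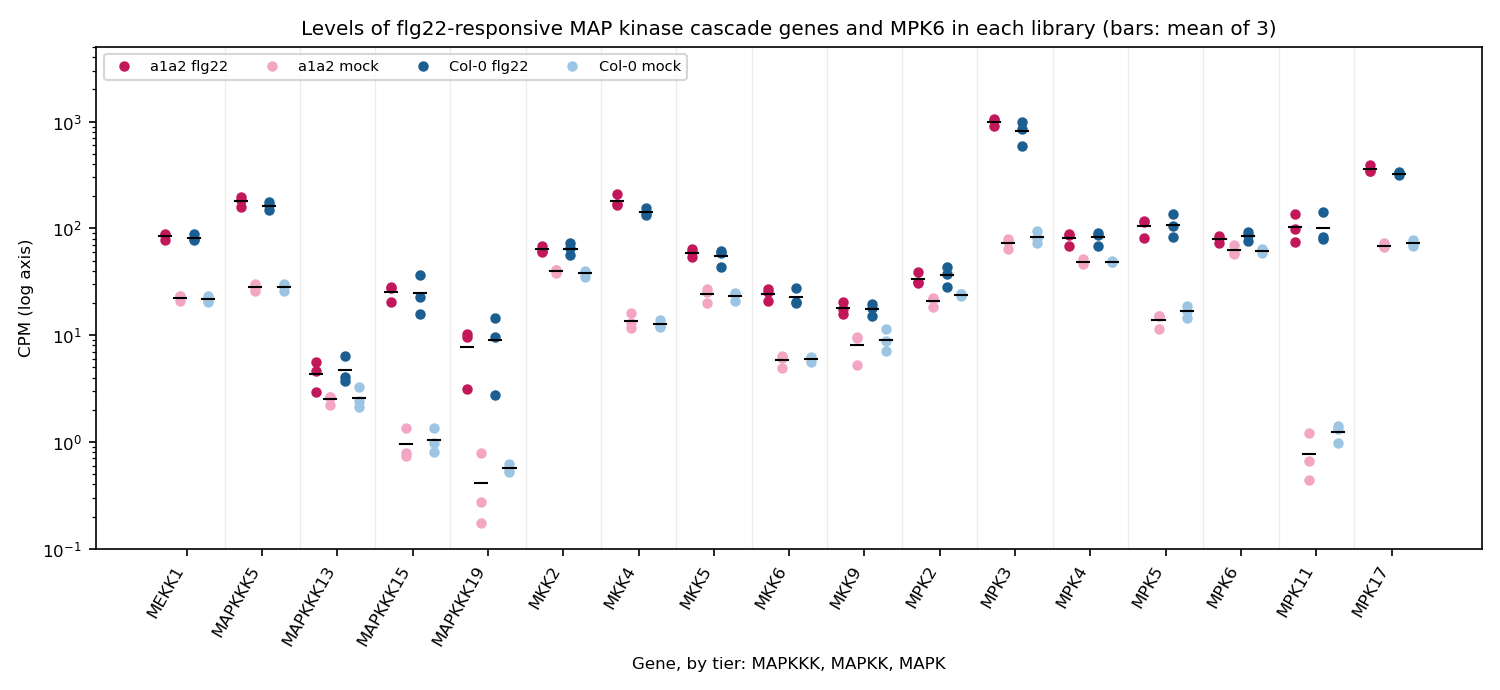
CPM (log axis) of the 16 called members and MPK6 in each library, ordered by tier, with the mean of each group of 3 as a bar. MPK11 lies between 74.9 and 143 CPM in the 6 flg22-treated libraries and at 1.4 CPM or lower in the 6 mock-treated ones. The groups of each gene run from left to right as flg22-treated a1a2, mock-treated a1a2, flg22-treated Col-0 and mock-treated Col-0.

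At the top of the cascade, 5 MAPKKKs were called. MEKK1 (AT4G08500), the MAPKKK of the MPK4 branch, had 86.8, 88.8 and 78.6 CPM in flg22-treated a1a2 against 23.2, 23.1 and 21 CPM in mock-treated a1a2. In Col-0 it had 88.5, 79.6 and 77.7 CPM with flg22 against 23.5, 20.4 and 21.2 CPM in mock. The libraries of each treatment were close and the treatments far apart, and the change was 1.92 ± 0.10 in each genotype (SE, edgeR adjusted p = 5.9e-08 in a1a2 and 7.5e-08 in Col-0). MAPKKK5 (AT5G66850), which links receptor-like cytoplasmic kinases to MKK4 and MKK5, had 199, 183 and 157 CPM in flg22-treated against 30.3, 26.2 and 27.5 CPM in mock-treated a1a2. Its levels were 176, 165 and 148 CPM in flg22-treated against 26.1, 28.6 and 29.9 CPM in mock-treated Col-0. It rose by 2.68 ± 0.12 in a1a2 and 2.53 ± 0.12 in Col-0 (SE, edgeR adjusted p = 3.11e-08 and 5.68e-08).

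The other 3 called MAPKKKs belong to the MEKK-like family and had low levels without flg22. MAPKKK15 (AT5G55090) had 28.2, 27.6 and 20.4 CPM in flg22-treated against 0.789, 1.36 and 0.743 CPM in mock-treated a1a2. In Col-0 it had 36.6, 22.7 and 15.6 CPM with flg22 against 0.809, 0.974 and 1.36 CPM in mock. Its change was the largest of the tier, 4.72 ± 0.36 in a1a2 and 4.57 ± 0.36 in Col-0 (SE, edgeR adjusted p = 1.61e-06 and 2.16e-06). MAPKKK19 (AT5G67080) had 10.2, 9.7 and 3.16 CPM in flg22-treated against 0.276, 0.788 and 0.175 CPM in mock-treated a1a2, and 14.4, 9.7 and 2.72 CPM in flg22-treated against 0.526, 0.62 and 0.552 CPM in mock-treated Col-0. Replicate 3 was the lowest treated library in each genotype, yet no treated library overlapped a mock library, and the change was 4.21 ± 0.73 in a1a2 and 3.97 ± 0.69 in Col-0 (SE, edgeR adjusted p = 0.00107 and 0.00124). MAPKKK13 (AT1G07150) had 5.54, 4.59 and 2.96 CPM in flg22-treated against 2.64, 2.23 and 2.62 CPM in mock-treated a1a2, and 6.37, 4.02 and 3.74 CPM in flg22-treated against 2.1, 2.39 and 3.27 CPM in mock-treated Col-0. The groups did not overlap in either genotype and the change was of like size, 0.80 ± 0.28 and 0.86 ± 0.28, with an edgeR adjusted p of 0.0527 in a1a2 and 0.0373 in Col-0. With the replicate number as a block the adjusted p in a1a2 was 0.0281. Its Col-0 call was lost without flg22-treated replicate 1 (0.54, adjusted p = 0.203) and without mock replicate 1 (0.70, adjusted p = 0.143) or mock replicate 2 (0.81, adjusted p = 0.11), and the a1a2 call was gained without flg22-treated replicate 3 (1.02, adjusted p = 0.0169), all by edgeR.

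MAPKK genes formed the middle tier, with MKK4 showing the largest change. MKK4 (AT1G51660), which activates MPK3 and MPK6, had 165, 210 and 170 CPM in flg22-treated against 16, 11.8 and 13.1 CPM in mock-treated a1a2. In Col-0 it had 133, 141 and 156 CPM with flg22 against 13.8, 12 and 12.3 CPM in mock. It rose by 3.74 ± 0.15 in a1a2 and 3.50 ± 0.15 in Col-0 (SE, edgeR adjusted p = 1.87e-08 and 3.55e-08). Its close relative MKK5 (AT3G21220), which acts redundantly with it, had 53.4, 64.1 and 60.1 CPM in flg22-treated against 25.6, 20 and 26.8 CPM in mock-treated a1a2, and 43.2, 61.3 and 59.3 CPM in flg22-treated against 24.3, 21 and 24.7 CPM in mock-treated Col-0. The higher group was clear of the lower in each genotype, with a change of 1.29 ± 0.15 in a1a2 and 1.23 ± 0.15 in Col-0 (SE, edgeR adjusted p = 6.04e-05 and 9.83e-05). MKK9 (AT1G73500), an upstream activator of MPK3 and MPK6 known from ethylene and camalexin synthesis, had 15.9, 17.7 and 20.3 CPM in flg22-treated against 9.36, 9.68 and 5.25 CPM in mock-treated a1a2, and 15.3, 19.7 and 17.9 CPM in flg22-treated against 11.4, 8.81 and 7.05 CPM in mock-treated Col-0. It rose by 1.15 ± 0.23 in a1a2 and 0.95 ± 0.23 in Col-0 (SE, edgeR adjusted p = 0.00318 and 0.00959).

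MKK2 and MKK6 act upstream of MPK4, MKK2 in the MEKK1 branch and MKK6 in cytokinesis. MKK6 (AT5G56580) had 26.9, 25.6 and 20.7 CPM in flg22-treated against 6.32, 4.9 and 6.17 CPM in mock-treated a1a2, and 27.4, 20.5 and 20 CPM in flg22-treated against 6.23, 5.58 and 6.12 CPM in mock-treated Col-0. It rose by 2.07 ± 0.16 in a1a2 and 1.92 ± 0.16 in Col-0 (SE, edgeR adjusted p = 1.68e-06 and 3.4e-06). MKK2 (AT4G29810), already abundant without treatment, had 60.4, 68.5 and 61.8 CPM in flg22-treated against 41.1, 38.1 and 40.3 CPM in mock-treated a1a2, and 72.8, 64.8 and 56.4 CPM in flg22-treated against 39.9, 38.4 and 35.3 CPM in mock-treated Col-0. Its rise was small beside that of MKK4, at 0.67 ± 0.10 in a1a2 and 0.77 ± 0.10 in Col-0 (SE, edgeR adjusted p = 0.00044 and 0.000165). MKK3, which acts upstream of the MAPKs related to MPK1, averaged 7.31 ± 0.65 CPM in flg22-treated and 6.96 ± 0.66 CPM in mock-treated a1a2, and 6.86 ± 1.14 CPM in flg22-treated and 7.4 ± 0.41 CPM in mock-treated Col-0 (SD, n = 3 each), and was not called. MKK7 stayed under 1 CPM in every library.

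In the MAPK tier MPK11 had the largest change of all members. MPK11 (AT1G01560), the nearest relative of MPK4, had 137, 98.1 and 74.9 CPM in flg22-treated against 1.22, 0.438 and 0.656 CPM in mock-treated a1a2. In Col-0 it had 143, 78.8 and 83.5 CPM with flg22 against 1.33, 0.974 and 1.4 CPM in mock. Replicate 1 was the highest treated library in each genotype, and the change was 7.03 ± 0.41 in a1a2 and 6.35 ± 0.39 in Col-0 (SE, edgeR adjusted p = 1.97e-07 and 3.51e-07), or 131-fold and 81.6-fold. MPK4 (AT4G01370), known for restraining autoimmunity, had 86.8, 88.2 and 68 CPM in flg22-treated against 51.9, 46.3 and 48.1 CPM in mock-treated a1a2, and 90.8, 87 and 68.7 CPM in flg22-treated against 47.9, 48.9 and 49 CPM in mock-treated Col-0. It rose by 0.73 ± 0.13 in a1a2 and 0.76 ± 0.13 in Col-0 (SE, edgeR adjusted p = 0.00103 and 0.000828). MPK5 (AT4G11330), of the same group as MPK4 and MPK11, had 118, 115 and 80.9 CPM in flg22-treated against 15.2, 15.2 and 11.4 CPM in mock-treated a1a2, and 135, 104 and 83.8 CPM in flg22-treated against 16.9, 18.9 and 14.4 CPM in mock-treated Col-0. The treated groups lay far above the mock groups, with a change of 2.91 ± 0.22 in a1a2 and 2.68 ± 0.21 in Col-0 (SE, edgeR adjusted p = 1.2e-06 and 2.36e-06).

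MPK3 and MPK6, the terminal kinases of the MKK4 and MKK5 branch, differed in the size of their RNA response. MPK3 (AT3G45640) had 902, 1041 and 1056 CPM in flg22-treated against 79.3, 76.1 and 63.8 CPM in mock-treated a1a2. In Col-0 it had 855, 595 and 985 CPM with flg22 against 81.6, 93.9 and 72.5 CPM in mock, so that replicate 2 was the lowest of the treated libraries. It rose by 3.77 ± 0.20 in a1a2 and 3.30 ± 0.20 in Col-0 (SE, edgeR adjusted p = 1.07e-07 and 2.84e-07), or 13.7-fold and 9.82-fold. MPK6 (AT2G43790) had 85.1, 81.6 and 73.4 CPM in flg22-treated against 69.9, 57 and 60.2 CPM in mock-treated a1a2, and 92.2, 86.1 and 76 CPM in flg22-treated against 62.6, 64.1 and 58.3 CPM in mock-treated Col-0. Its treated libraries lay above the mock libraries in each genotype and it passed the p threshold, but the change of 0.36 ± 0.11 in a1a2 and 0.46 ± 0.11 in Col-0 was under 1.5-fold (SE, edgeR adjusted p = 0.028 and 0.00779).

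The remaining called MAPKs were MPK17 of the TDY class and MPK2 of the MPK1 group. MPK17 (AT2G01450) had 344, 390 and 341 CPM in flg22-treated against 72.9, 67.7 and 66.5 CPM in mock-treated a1a2, and 314, 329 and 334 CPM in flg22-treated against 72.3, 77.4 and 68.4 CPM in mock-treated Col-0. Replicates were tight, and it rose by 2.38 ± 0.10 in a1a2 and 2.16 ± 0.10 in Col-0 (SE, edgeR adjusted p = 2.74e-08 and 5.39e-08). MPK2 (AT1G59580) had 38.9, 31.5 and 30.6 CPM in flg22-treated against 21.9, 22.2 and 18.2 CPM in mock-treated a1a2, and 43.6, 37.6 and 28.3 CPM in flg22-treated against 24.3, 24 and 23.2 CPM in mock-treated Col-0. It rose by 0.70 ± 0.15 in a1a2 and 0.61 ± 0.15 in Col-0, close to the fold threshold (SE, edgeR adjusted p = 0.00532 and 0.0108). The a1a2 call was lost without flg22-treated replicate 1 (0.54, edgeR adjusted p = 0.0414) and the Col-0 call likewise without flg22-treated replicate 1 (0.42, edgeR adjusted p = 0.0777). MPK1, with the same activation-loop bases, changed by 0.01 ± 0.21 in a1a2 and 0.13 ± 0.21 in Col-0, and was not called.

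By class, 5 of 11 TEY and 1 of 7 TDY kinases were called higher in each genotype, where 13.9% of all genes were called higher in each. The median change of the TEY genes was 0.36 in a1a2 and 0.46 in Col-0, and that of the TDY genes was -0.01 and 0.02. Within the TDY class MPK17 and MPK18, whose activation-loop stretches are printed above, had changes of opposite sign. MPK18, known from cortical microtubule function, averaged 51.8 ± 2.7 CPM in flg22-treated against 77.5 ± 1.0 CPM in mock-treated a1a2, and 57 ± 9.0 CPM in flg22-treated against 83.6 ± 8.2 CPM in mock-treated Col-0 (SD, n = 3 each). It passed the p threshold at -0.58 ± 0.12 in a1a2 and -0.55 ± 0.12 in Col-0 but fell just short of 1.5-fold (SE, edgeR adjusted p = 0.00301 and 0.00414). In a1a2 it was called lower under 9 of 13 alternatives, with changes of -0.83 to -0.56 over the 13: RLE factors, library size only, no filter, DESeq2 with and without the block, only the 6 libraries compared, and without flg22-treated replicate 1, mock replicate 1 or mock replicate 2. In Col-0 it was called lower under 4 of 13, with changes of -0.80 to -0.47: library size only, and without flg22-treated replicate 2, mock replicate 1 or mock replicate 3.

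**Figure D3:**
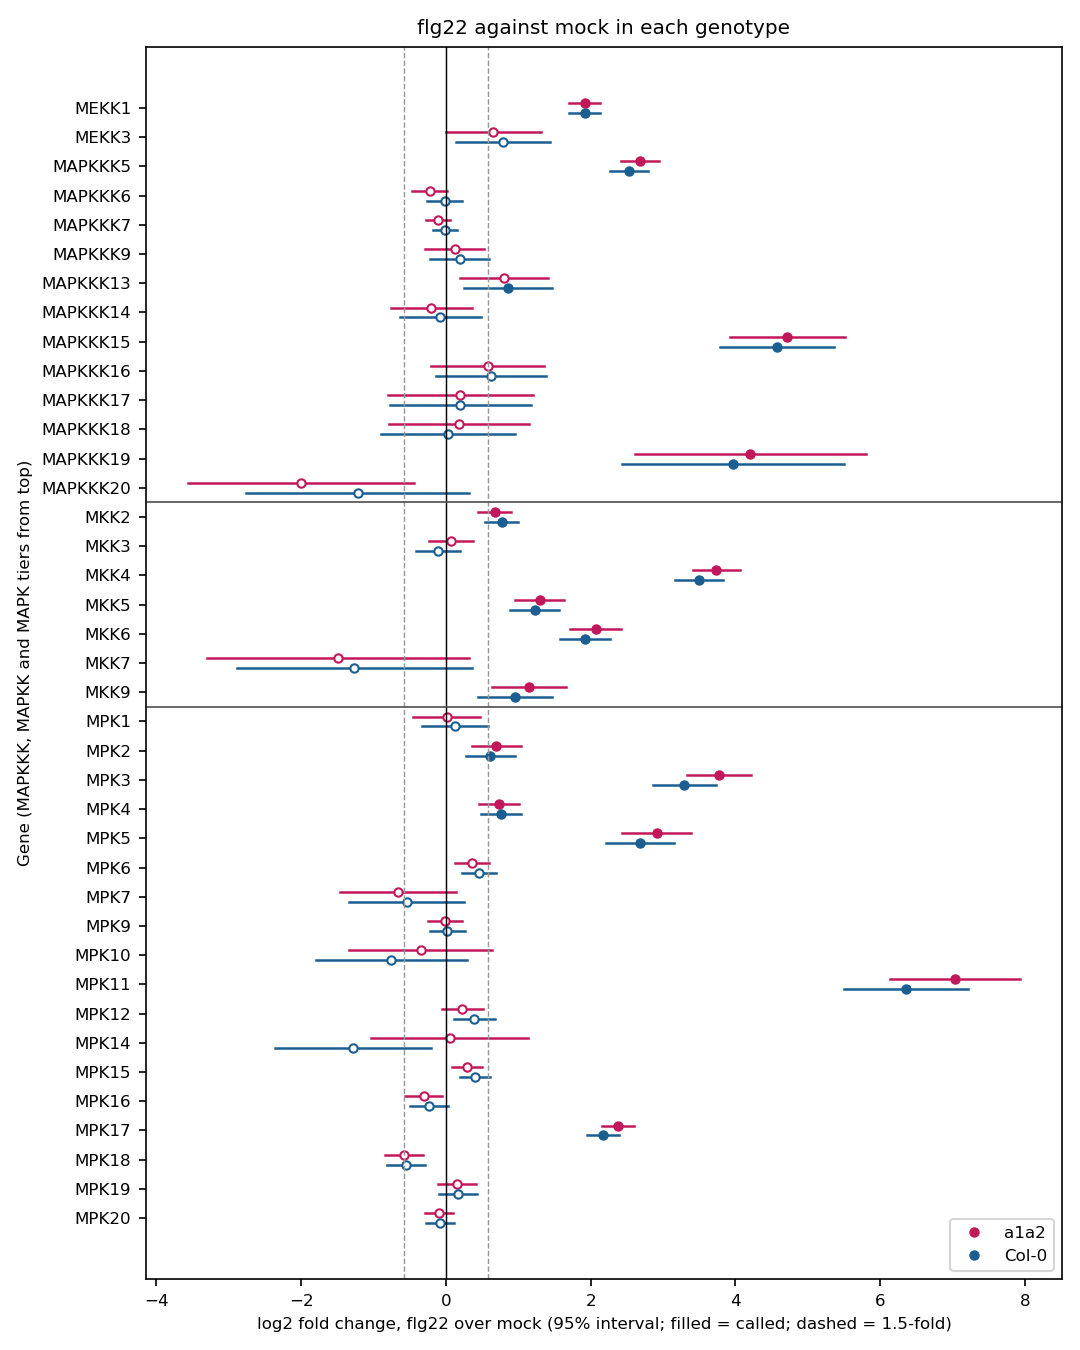
The log2 fold change of flg22 over mock for the 39 tested members, with 95% intervals from edgeR, a1a2 above Col-0 for each gene, tiers from top to bottom, filled points for called genes and dashed lines at 1.5-fold. Filled points lie to the right only, led by MPK11 at 7.03 in a1a2 and 6.35 in Col-0, and the genotypes' intervals overlap for every gene.

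A further 2 MAPKs passed the p threshold under 1.5-fold. MPK15 changed by 0.30 ± 0.09 in a1a2 and 0.40 ± 0.09 in Col-0 (SE, edgeR adjusted p = 0.0352 and 0.00783), and MPK12, known from guard cells, by 0.39 ± 0.13 in Col-0 (adjusted p = 0.0403) and 0.23 ± 0.13 in a1a2 (adjusted p = 0.238). Several members had precise values near zero. MPK20 changed by -0.09 in a1a2 (95% interval -0.29 to 0.10) and -0.08 in Col-0 (-0.28 to 0.11), and MAPKKK7, known from membrane integrity and pollen viability, by -0.11 (-0.27 to 0.06) and -0.01 (-0.17 to 0.16). Others had wide intervals. MAPKKK18, known from abscisic acid signalling, had a change of 0.18 in a1a2 (-0.79 to 1.14) and 0.03 in Col-0 (-0.90 to 0.95), so a change of over 1.5-fold could not be seen or dismissed at this depth. In all, the interval lay within 1.5-fold for 11 of 39 members in a1a2 and 8 of 39 in Col-0.

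Promoter sequence was read upstream of the start of each member, since the WRKY transcription factors that flg22 induces bind the W-box. The largest changes of each tier, MPK11, MKK4 and MAPKKK15, are shown with MPK3, the best-expressed member, and MAPKKK5, the leading MAPKKK. Each is the 250 bases before the annotated start in TAIR10.1, on the strand of the gene, with W-box letters (TTGACC or TTGACT, read on either strand, so also GGTCAA or AGTCAA) in capitals.
MPK11 (chr1:201853-202102, plus strand): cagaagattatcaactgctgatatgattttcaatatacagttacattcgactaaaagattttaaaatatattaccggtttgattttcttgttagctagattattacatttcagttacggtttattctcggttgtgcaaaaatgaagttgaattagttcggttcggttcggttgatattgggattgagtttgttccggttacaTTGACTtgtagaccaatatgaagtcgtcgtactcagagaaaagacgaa
MKK4 (chr1:19154073-19154322, plus strand): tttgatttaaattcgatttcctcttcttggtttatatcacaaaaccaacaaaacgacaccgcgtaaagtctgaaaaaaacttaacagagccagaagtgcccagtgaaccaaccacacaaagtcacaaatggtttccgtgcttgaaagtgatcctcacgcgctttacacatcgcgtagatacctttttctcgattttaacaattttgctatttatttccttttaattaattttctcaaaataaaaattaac
MAPKKK15 (chr5:22358414-22358663, minus strand): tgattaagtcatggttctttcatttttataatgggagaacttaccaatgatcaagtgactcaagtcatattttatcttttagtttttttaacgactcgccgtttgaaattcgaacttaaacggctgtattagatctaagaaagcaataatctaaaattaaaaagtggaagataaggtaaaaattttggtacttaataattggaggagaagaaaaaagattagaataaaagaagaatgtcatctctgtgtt
MPK3 (chr3:16756321-16756570, plus strand): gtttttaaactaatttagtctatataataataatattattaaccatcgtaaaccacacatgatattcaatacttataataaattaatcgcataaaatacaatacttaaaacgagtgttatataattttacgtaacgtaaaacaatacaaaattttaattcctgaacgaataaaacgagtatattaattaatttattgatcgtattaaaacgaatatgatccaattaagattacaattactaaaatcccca
MAPKKK5 (chr5:26699427-26699676, minus strand): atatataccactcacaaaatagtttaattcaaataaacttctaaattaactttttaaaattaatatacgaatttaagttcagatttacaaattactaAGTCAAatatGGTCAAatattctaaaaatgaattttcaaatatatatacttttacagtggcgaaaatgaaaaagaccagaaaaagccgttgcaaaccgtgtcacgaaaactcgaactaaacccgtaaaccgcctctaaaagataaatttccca
MPK11 had 1 match and MAPKKK5 had 2, while MKK4, MAPKKK15 and MPK3 had none in this window. Over a window from 250 bases before to 50 after the start, 13 of 41 members held a match (31.7%), against 7798 of 23738 genes with such a window (32.9%). Among the 16 members called in either genotype 6 held one (37.5%), against 7 of the 25 others (28%). The largest number of matches, 3, was in MKK2 and MPK6. The matches are descriptions of letters and were not tested for binding.

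No member was called between genotypes. In mock-treated seedlings 0 of 39 were called between a1a2 and Col-0, where 0.166% of all genes were called, and after flg22 0 of 39, where 0.137% were called. At an unadjusted p under 0.05, edgeR gave 0 members in mock and 1 after flg22, where 4.6% and 4.65% of all genes had one, and DESeq2 also called 0 in each. With the replicate number as a block 0 of 39 were called in each as well, where 0.959% of all genes were called in mock and 0.827% after flg22. At an unadjusted p under 0.05 the block gave 3 members in mock (MPK5, MPK11 and MPK14) and 3 after flg22 (MPK7, MEKK3 and MKK4), or 7.69% in each, against 11.8% and 13.3% of all genes. The gene with the unadjusted p under 0.05 without the block was MKK4, at 182 ± 25 CPM in flg22-treated a1a2 and 143 ± 12 CPM in Col-0 given flg22 (SD over 3 libraries each), a change of 0.34 ± 0.13 (SE, 95% interval 0.05 to 0.64, edgeR adjusted p = 0.997). Its libraries did not overlap, as was the case after flg22 for MPK17 (higher in a1a2) and for MPK12, MPK15, MPK19 and MAPKKK7 (lower in a1a2), and in mock for MPK2 (lower in a1a2). That made 6 of 39 members after flg22 (15.4%) and 1 of 39 in mock (2.56%), where the groups did not overlap for 8% and 9.78% of all tested genes.

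The width of the genotype intervals varied between members. The 95% interval lay within 1.5-fold for 22 of 39 members in each treatment. For MEKK1 it was -0.15 to 0.25 after flg22 and -0.16 to 0.25 in mock, for MPK4 -0.30 to 0.26 and -0.27 to 0.28, and for MPK6 -0.32 to 0.15 and -0.22 to 0.25. For MPK3 it was -0.10 to 0.70 after flg22 and -0.58 to 0.22 in mock, so its upper bound after flg22 passed 1.5-fold. The widest was that of MKK7 after flg22, at -2.64 to 1.41.

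**Figure D4:**
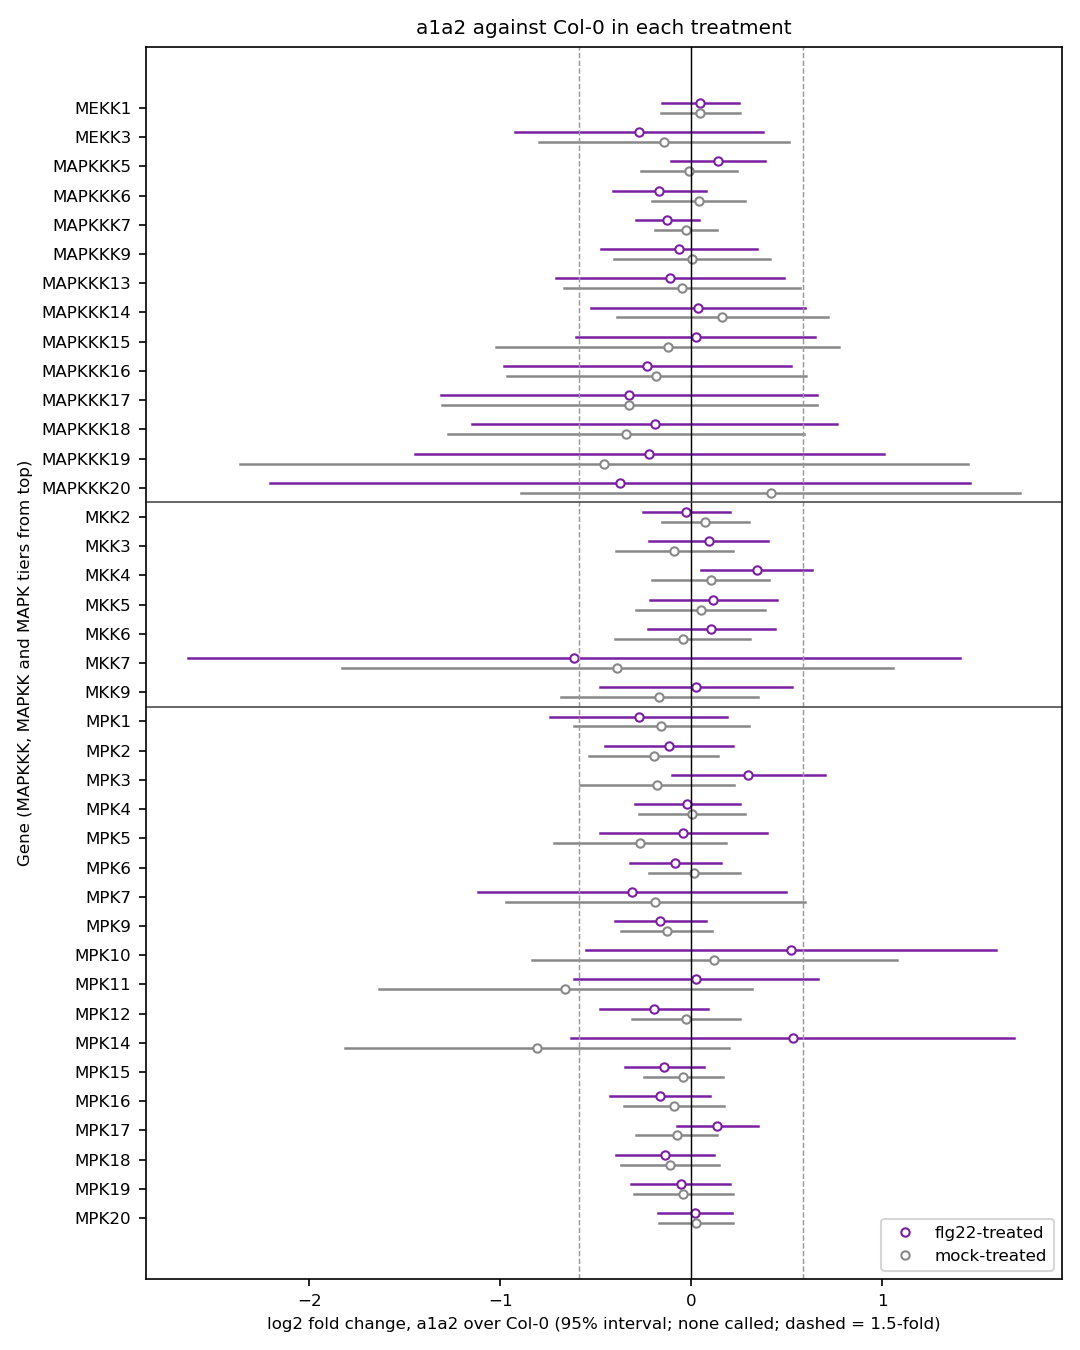
The log2 fold change of a1a2 over Col-0 for the 39 tested members, with 95% intervals from edgeR, flg22-treated above mock-treated for each gene, and dashed lines at 1.5-fold. All points are open, as none was called, and the intervals of MKK7, MAPKKK19 and MAPKKK20 are the widest in each treatment.

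The response to flg22 was compared between genotypes as an interaction, the change in a1a2 minus the change in Col-0. It was called for 0 of 39 members and for 0% of all genes, and 0 members had an unadjusted p under 0.05 in edgeR, against 0.92% of all genes. With the block 2 members did, MPK11 and MPK14 (5.13%), against 2.11% of all genes, and 0 were called. Without the block the smallest p was that of MPK14, at 1.34 ± 0.70 (SE, 95% interval -0.20 to 2.88), a gene with at most 1.29 CPM in any library. MPK3 gave 0.48 ± 0.26 (95% interval -0.09 to 1.05) and MEKK1 gave 0.00 ± 0.13 (-0.30 to 0.30). The interval lay within 1.5-fold for 17 of 39 members. A gene called in Col-0 alone, MAPKKK13, had an interaction of -0.06 ± 0.39 (95% interval -0.92 to 0.80), so its responses were not shown to differ.

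Some members varied with the replicate number that the libraries of the 4 groups share. Replicate 3 was the lowest in all 4 groups for 9 of 39 members (23.1%), against 12.8% of all tested genes, and replicate 1 was the highest in all 4 for 3 (7.69%), against 7.13%. MEKK3 (AT4G08470), of the same tandem group as MAPKKK9 and MEKK1, had 37.9, 30.2 and 23.3 CPM in flg22-treated against 24.4, 19.7 and 13.9 CPM in mock-treated a1a2, and 49.2, 38.2 and 23.1 CPM in flg22-treated against 26.4, 21.1 and 16.5 CPM in mock-treated Col-0. Treated and mock groups overlapped, yet within each replicate number the treated library was the higher one in both genotypes. It changed by 0.66 ± 0.30 in a1a2 and 0.79 ± 0.30 in Col-0 (SE, edgeR adjusted p = 0.133 and 0.0718), and with the replicate number as a block it was called in each (adjusted p = 8.5e-05 and 2.64e-05).

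MPK7, which acts with MPK1 and MPK2 below MKK3, had lower levels after flg22 at each replicate number. It had 10.8, 8.65 and 6.27 CPM in flg22-treated against 18, 13.6 and 9.09 CPM in mock-treated a1a2, and 12.2, 12.7 and 6.9 CPM in flg22-treated against 21.2, 16.5 and 8.66 CPM in mock-treated Col-0. The change was -0.66 ± 0.36 in a1a2 and -0.54 ± 0.36 in Col-0 (SE, edgeR adjusted p = 0.217 and 0.313), and with the block it was called lower in a1a2 (adjusted p = 0.00131). In Col-0 MPK7 passed the p threshold with the block but was short of 1.5-fold (-0.51, edgeR adjusted p = 0.00565). Others that gained a call with the block were MAPKKK20 in a1a2 (lower, adjusted p = 0.019), at 0.223 ± 0.22 CPM in flg22-treated against 0.894 ± 0.58 CPM in mock-treated a1a2 (SD, n = 3 each), and MPK14 in Col-0 (lower, adjusted p = 0.0114), at 0.374 ± 0.16 CPM in flg22-treated against 0.911 ± 0.39 CPM in mock-treated Col-0. With the block 17 members were higher and 2 lower in a1a2, where 24.8% of all genes were called, 15.5% as higher and 9.37% as lower. In Col-0 17 were higher and 1 lower, where 24.6% of all genes were called, 15.3% as higher and 9.27% as lower.

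**Figure D5:**
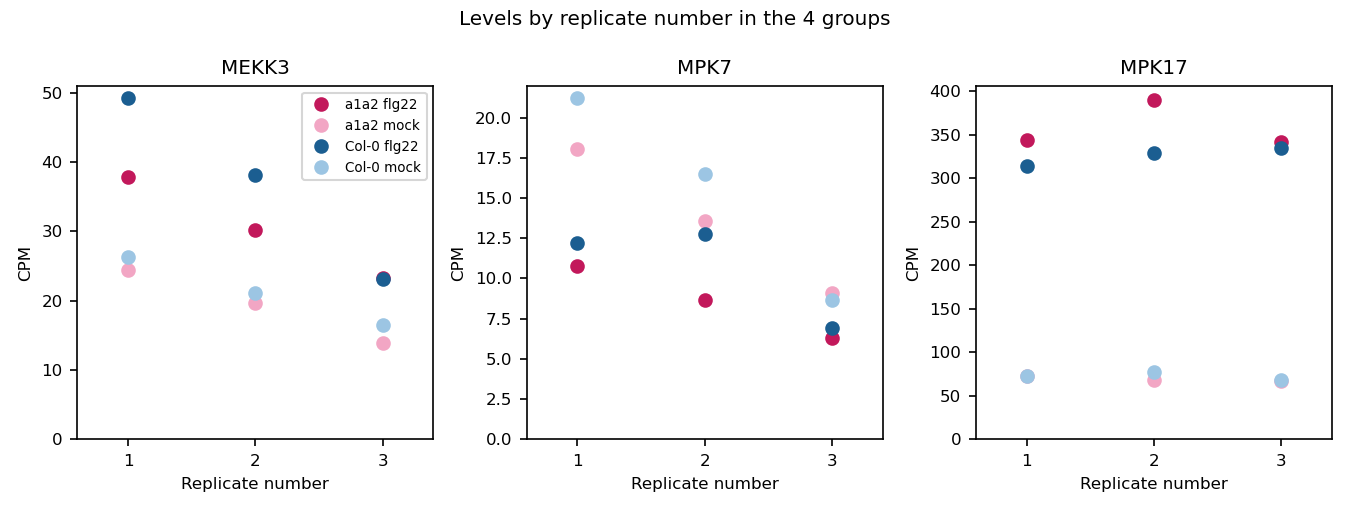
CPM of MEKK3, MPK7 and MPK17 in the 4 groups by replicate number (linear axes from 0). Replicate 3 is the lowest in all 4 groups for MEKK3 and MPK7, with MEKK3 higher and MPK7 lower after flg22 at each number, while MPK17 has tight groups at 314 to 390 CPM with flg22 and 66.5 to 77.4 CPM in mock.

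Genes that act around the cascade were counted from lists of 38 genes whose names matched the annotation, and their counts are read beside the 13.9% of all genes called higher after flg22 in each genotype. The lists were drawn up with earlier results of these data known, so an excess over that share is a description and no test. Of 7 cascade kinases under other names, 3 were called higher after flg22 and 0 lower in each genotype: MEK1, the partner of MKK2 (1.76 ± 0.20 in a1a2 and 1.68 ± 0.20 in Col-0), EDR1 (0.67 ± 0.13 and 0.81 ± 0.13) and CTR1 of ethylene signalling (0.89 ± 0.24 and 0.95 ± 0.24). YDA, the MAPKKK of stomatal development, changed by -0.03 ± 0.09 in a1a2 and 0.02 ± 0.09 in Col-0. ATMPK8 and MAP3KA, added after the file was seen, were not called. Among 7 phosphatases that inactivate or act on MAPKs, 2 rose and 0 fell in each genotype: AP2C1, by 2.21 ± 0.13 and 1.78 ± 0.13, and MKP1, by 1.04 ± 0.12 in each (SE throughout).

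Receptors and proteins that link them to the cascade were called higher for 6 of 9 in a1a2, with 1 lower, and for 7 of 9 in Col-0, with 0 lower. The smallest adjusted p-values in Col-0 were those of BIK1, a receptor-like cytoplasmic kinase (3.18 ± 0.21 in a1a2 and 2.99 ± 0.21 in Col-0), the chitin receptor kinase CERK1 (2.81 ± 0.20 and 2.66 ± 0.20) and CRCK3 (1.74 ± 0.13 and 1.59 ± 0.13). The co-receptor BAK1, with a larger adjusted p than these, changed by 2.31 ± 0.20 in a1a2 and 2.12 ± 0.20 in Col-0. FLS2 itself, named after its values were seen, changed by 1.75 ± 0.49 in a1a2 and 1.85 ± 0.49 in Col-0. The gene called lower in a1a2 was SUMM2, an immune receptor that guards the MEKK1 branch, at -0.80 ± 0.17 in a1a2 and -0.52 ± 0.16 in Col-0, and PBL27 was called in Col-0 alone (0.51 ± 0.11 in a1a2 and 0.60 ± 0.11 in Col-0). Of 15 substrates and targets 9 rose and 0 fell in each genotype. The smallest adjusted p-values in Col-0 were those of MKS1, a partner of MPK4 (3.62 ± 0.14 in a1a2 and 3.18 ± 0.14 in Col-0), WRKY33 (5.63 ± 0.22 and 4.90 ± 0.21) and ERF6 (5.42 ± 0.23 and 4.48 ± 0.22). In the genotype comparisons and the interaction 0 genes of these lists were called.

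Reads of some members may not have been told from those of a neighbour or relative, which was not tested. In TAIR10.1, 13 of the 41 members overlapped a gene on the opposite strand, among them the called MPK3, MPK4, MPK5, MKK5 and MAPKKK19, and whether counting used strand is not given in the sources used here. MKK4 overlapped AT1G51670 on its own strand and had fractional counts in 8 of 12 libraries, and MPK16 and MAPKKK7 also had fractional counts. All other members, MKK5 among them, had whole counts in every library. Close copies such as MKK4 and MKK5, MPK1 and MPK2, MAPKKK19, MAPKKK20 and MAPKKK21, and the tandem genes MEKK1 (chr4:5403671-5407320), MAPKKK9 (chr4:5387351-5391575) and MEKK3 (chr4:5383688-5387260) may share reads. MAPKKK9, also known as MEKK2, was not called, at 11.8 ± 2.1 CPM in flg22-treated and 10.8 ± 2.4 CPM in mock-treated a1a2, and 12.3 ± 2.1 CPM in flg22-treated and 10.8 ± 0.67 CPM in mock-treated Col-0 (SD, n = 3 each).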

How the data were processed

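RNA-seq of whole seedlings was deposited as 1 table of expected counts per gene for 12 libraries. The deposited expected counts were made by the authors, and the labels name HISAT and DESeq2 and the build TAIR10. The counting tool and the use of strand are not given in the sources used here. Of the entries 7.5% were fractional, and counts were rounded to whole numbers. Groups and replicate numbers came from the sample titles. The members and gene lists were chosen with earlier results of these data known.

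Genes were filtered with filterByExpr, scaled by TMM and fitted in edgeR 4.0.16 (R 4.3.3, limma 3.58.1) with 1 mean for each of the 4 groups, so that all 12 libraries share the estimate of the spread. The filter kept 99.97% of the counts. Per-library values are given for members called in any comparison and for the kinases of the textbook flg22 cascades. For other lists, up to 3 called genes with the smallest adjusted p in Col-0 are named. YDA, BAK1, FLS2, SUMM2 and PBL27 were named outside this rule, as were ATMPK8 and MAP3KA. The call rule of an adjusted p under 0.05 and over 1.5-fold follows the study. Intervals are at 95% and cover the spread between these libraries. Samples with the same replicate number deviated from their group means together: all 18 same-numbered pairs had r of 0.218 to 0.66, against -0.549 to 0.154 for the 36 other pairs, and so the numbers were taken to pair the samples. The main fit holds no replicate term, so its calls, SEs and intervals do not use this pairing. Only the fits with the replicate number as a block do. No library was a copy of another. Tests were checked on simulated data for flg22 against mock in Col-0, scored by the adjusted p alone. Most changes of 1.5-fold, the call threshold itself, were missed, and many of 2-fold were missed as well. The genotype comparisons were not simulated. A count of 0 therefore does not show that such changes are absent.

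Gene models, coordinates and sequences came from RefSeq TAIR10.1, matched by gene ID for all 23739 genes, as the table holds no coordinates. The alternatives were RLE factors, library size only, no filter, DESeq2 1.42.0, the replicate number as a block, only the 6 libraries compared, and leaving out each library. DESeq2 with the block was added after the data were seen.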

Additional observations from a re-analysis of the deposited data

How the results depend on the processing

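The number of members called for flg22 against mock ran from 14 to 20 in a1a2 and from 14 to 19 in Col-0 over all alternatives, beside 15 and 16. Leaving out a library gave 15 to 16 and 14 to 19. With the replicate block the counts were 19 and 18, with DESeq2 18 and 16, and with DESeq2 and the block 20 and 17. In a1a2 the DESeq2 fit added MAPKKK13 as higher and MAPKKK20 and MPK18 as lower. The genotype comparisons and the interaction gave 0 members under every alternative run, the block included. For the 16 called members and MPK6, 424 of the values under an alternative kept their direction and side of the threshold, 14 fell short of it and 4 passed it newly, and none reversed. Those that moved were MAPKKK13, MKK2, MPK2 and MPK4, the called members with the smallest changes. MPK2 was also lost in Col-0 with DESeq2 and the block (0.58), and MAPKKK13 in Col-0 when only the 6 libraries compared were fitted (edgeR adjusted p = 0.0734). The block changed no other call than those given above. The genotype intervals of MKK7, MAPKKK19 and MAPKKK20 were the widest, so little can be said of their genotype differences. MKK7 had 1 to 21 counts in a library and MAPKKK20 had 1 to 38. MAPKKK19 had 4 to 18 counts in mock-treated libraries but 56 to 280 after flg22. Its SE between genotypes after flg22 was 0.56, and 0.27 with the replicate block.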
